A study of Arabidopsis thaliana with 4 samples.

Results

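The 42 core cell cycle genes were taken by gene identifier from a table of 37885 genes, and all 42 were present. They comprise the cyclin-dependent kinase CDKA;1 and the 4 CDKB kinases, 20 cyclins of the A, B and D types, the 7 KRP inhibitors, the inhibitors SIM and SMR1, the retinoblastoma homologue RBR1, the transcription factors E2FA, E2FB, E2FC and DEL1, the cytokinesis syntaxin KNOLLE, and the DNA polymerase clamp genes PCNA1 and PCNA2. The libraries came from whole seedlings of the Arabidopsis thaliana double mutant prt6-1hyt1-1, aged 7 days, raised under continuous light on half-strength MS agar with no sucrose and left untreated. Poly(A) RNA was sequenced from libraries made with a strand-marking kit. PRT6 is the ubiquitin ligase of the arginine branch of the N-degron pathway, and the deposited columns carry the name hup40 in place of hyt1. There was 1 group of 4 biological replicates with 24743656 to 26155431 counts each, so no effect of either mutation could be tested, and Col-0, prt6-1 and prt6-1erfvII libraries named in the design were not analysed here. The labels do not say whether the replicates were separate plates or sowings, so the spread between them may be in part technical. Whole seedlings mix dividing and non-dividing cells, and fewer cells of a type cannot be told apart from less RNA per cell.

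Passage through the plant cell cycle depends on kinases that act only when bound to a cyclin. D-type cyclins with CDKA;1 phosphorylate RBR1 in G1, which frees E2F factors to activate genes of DNA replication. A- and B-type cyclins with the same kinase and the plant-specific CDKB kinases then act from S phase to mitosis, and many of their genes are activated by MYB3R factors through a promoter element called MSA (mitosis-specific activator). KRP and SIM/SMR proteins bind and inhibit the kinase complexes, and both families are linked to endoreplication, in which DNA is copied without division. In a seedling of this age, divisions are concentrated in the root and shoot meristems and in young leaves.

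The promoters of the B-type cyclins are shown first, because 6 of the 8 carry one element at least 3 times. Each line gives the 250 bases before the annotated start, read 5′ to 3′ on the gene's strand, from the RefSeq TAIR10.1 genome. Capitals mark the MSA core AACGG or its reverse complement CCGTT, and no bases around the core were required. The last B-type cyclin is shown because it has no match, and KRP1 because it has the most matches of any member.

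CYCB1;2, chr5:1861704-1861953, minus strand: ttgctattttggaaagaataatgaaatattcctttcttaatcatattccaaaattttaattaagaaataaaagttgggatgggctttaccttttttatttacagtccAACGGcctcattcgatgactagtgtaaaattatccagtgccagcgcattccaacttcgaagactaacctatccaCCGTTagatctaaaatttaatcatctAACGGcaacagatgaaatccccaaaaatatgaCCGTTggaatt

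CYCB1;3, chr3:3627274-3627523, minus strand: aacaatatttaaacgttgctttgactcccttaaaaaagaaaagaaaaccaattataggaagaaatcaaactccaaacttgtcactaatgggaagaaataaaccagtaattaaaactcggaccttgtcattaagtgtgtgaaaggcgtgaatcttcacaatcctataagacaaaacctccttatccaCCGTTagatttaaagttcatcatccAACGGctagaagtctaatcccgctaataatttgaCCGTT

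CYCB2;1, chr2:7663805-7664054, plus strand: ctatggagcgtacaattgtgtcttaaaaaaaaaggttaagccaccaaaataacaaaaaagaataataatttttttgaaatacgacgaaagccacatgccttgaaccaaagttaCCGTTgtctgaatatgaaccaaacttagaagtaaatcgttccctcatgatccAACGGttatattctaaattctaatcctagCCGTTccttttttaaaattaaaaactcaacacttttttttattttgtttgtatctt

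CYCB2;2, chr4:16901346-16901595, plus strand: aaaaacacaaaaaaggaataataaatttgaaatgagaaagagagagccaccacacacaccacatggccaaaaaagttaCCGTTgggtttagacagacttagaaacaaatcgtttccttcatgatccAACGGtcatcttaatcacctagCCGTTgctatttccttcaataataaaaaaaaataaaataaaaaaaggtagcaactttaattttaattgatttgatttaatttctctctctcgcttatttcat

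CYCB2;3, chr1:7137829-7138078, minus strand: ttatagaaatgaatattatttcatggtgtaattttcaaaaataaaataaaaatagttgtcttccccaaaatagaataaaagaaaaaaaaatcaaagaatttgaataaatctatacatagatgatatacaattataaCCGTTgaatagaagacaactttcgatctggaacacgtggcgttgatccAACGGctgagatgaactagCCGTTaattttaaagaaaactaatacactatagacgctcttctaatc

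CYCB2;4, chr1:28630790-28631039, minus strand: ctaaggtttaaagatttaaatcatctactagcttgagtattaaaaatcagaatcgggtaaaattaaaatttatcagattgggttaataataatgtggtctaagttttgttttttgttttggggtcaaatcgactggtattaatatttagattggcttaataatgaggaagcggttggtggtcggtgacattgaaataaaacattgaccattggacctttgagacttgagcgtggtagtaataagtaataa

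KRP1, chr2:9978091-9978340, minus strand: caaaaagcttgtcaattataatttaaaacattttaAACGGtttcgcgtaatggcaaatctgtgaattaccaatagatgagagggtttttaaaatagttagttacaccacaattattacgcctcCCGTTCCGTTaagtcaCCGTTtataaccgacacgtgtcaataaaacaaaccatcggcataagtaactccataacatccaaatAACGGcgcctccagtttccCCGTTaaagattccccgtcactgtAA

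In a window from 250 bases before to 50 bases after the start, 7 of the 8 B-type cyclin promoters held the MSA core on either strand, and 6 of the 8 held it at least 3 times. Of 27443 promoters of protein-coding genes in windows of the same length, 24.7% held it and 1.06% held it at least 3 times. Of the 42 members, 20 (47.6%) held it and 11 held it at least 3 times. The 3 CYCB2 genes with matches shared one arrangement, with a core on the opposite strand, then one on the gene's strand, then another on the opposite strand. In the order printed, the first bases of these cores were 52 and 29 bases apart, 48 and 22 apart, and 48 and 19 apart. Around the middle core the 3 promoters shared the run tgatccAACGG, and around the last the run ctagCCGTT. Both CYCB1 genes printed above held the same order of strands near the start, at spacings of 26 and 32 and of 25 and 34 bases. Another CYCB1 gene (AT4G37490) did not, since its 3 cores lay on the opposite, the opposite and the gene's strand, 107 and 48 bases apart. Of the 22 matches in the B-type promoters, 20 lay within 150 bases before the start or after it. In CYCB1;4 both matches lay at or after the start, so none would show in the bases before it. A match is a description of letters, not of a bound site.

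**Figure D1:**
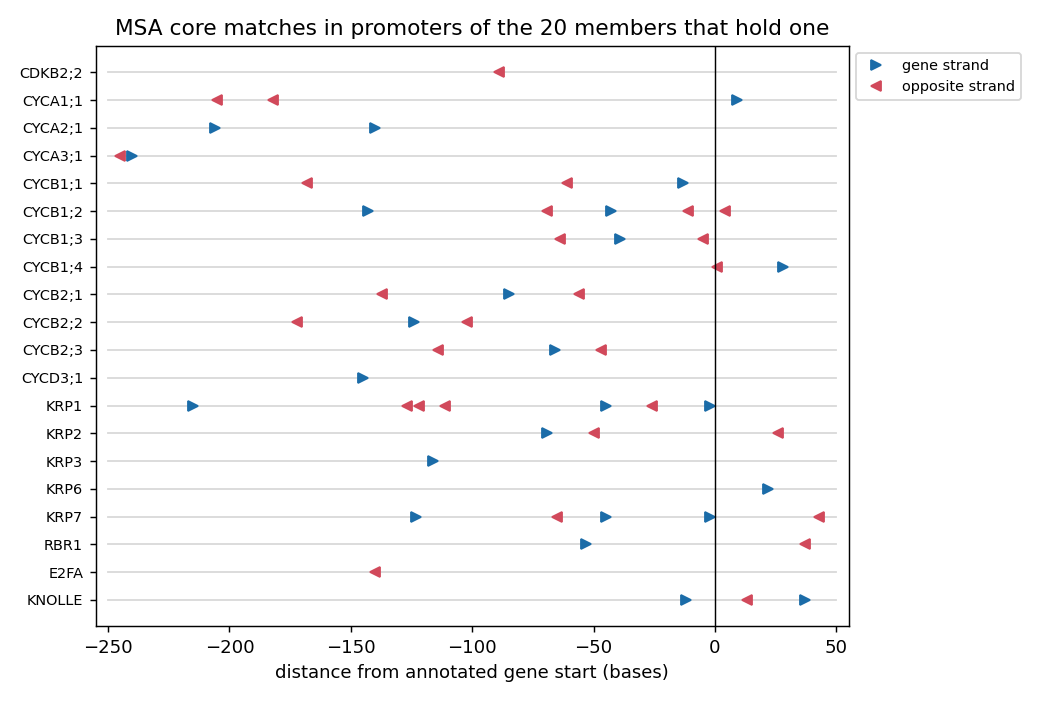
Position of each MSA core match (horizontal axis, bases from the annotated start of the gene) in the 20 members that hold one, with arrows for the strand. B-type cyclins carry 2 to 5 matches each, mostly within 150 bases before the start, and KRP1 carries 7.

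Among the KRP inhibitors, 5 of 7 held the MSA core. KRP1 had 7 matches, and 2 of the 27443 promoters held it at least 7 times. The last match in KRP1 begins with the final capitals of its line and runs past the start. KRP7 had 5 and KRP2 had 3, whereas KRP4 and KRP5 had none. KNOLLE and CYCA1;1 had 3 each, and SIM, SMR1 and both PCNA genes had none in this window. E2F sites, which recruit E2F factors, were searched as TTTCCCGC, TTTGGCGC, TTTGCCGC and TTTCGCGC on both strands. Among the members they were found in the promoters of RBR1 and CYCD3;3, 4.76% beside 1.76% of all promoters. The site II element TGGGCC, bound by TCP factors, was found in 6 members, or 14.3% beside 15.5% of all promoters, and PCNA2 held it on both strands. A site II match overlapped an MSA core in CYCB1;1 and in KRP7, and another site II match in RBR1.

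Transcripts of the core cell cycle genes were of middling to low abundance in the seedlings. All 42 had counts in every library, from 12 to 1236, and all 42 passed the expression filter that kept 19940 genes. Together they took 0.0621% ± 0.00353 of the counts (SD, n = 4). Their median level was 10.4 TPM (transcript level scaled for gene length and depth), beside 13.6 TPM for all genes kept. By TPM, 17 members lay above the median gene and 25 below it. SMR1 and KNOLLE led the order, followed by a kinase and a D-type cyclin at 40.4 and 39.8 TPM, PCNA2 at 33.6 TPM and SIM at 26.7 TPM. The order was close, since the ranges over libraries overlapped for 36 of the 41 neighbouring pairs. The ranges did not meet below KNOLLE, CYCD3;2, PCNA2 and RBR1, nor between the last 2 genes of the order, both of the CYCA2 group.

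**Figure D2:**
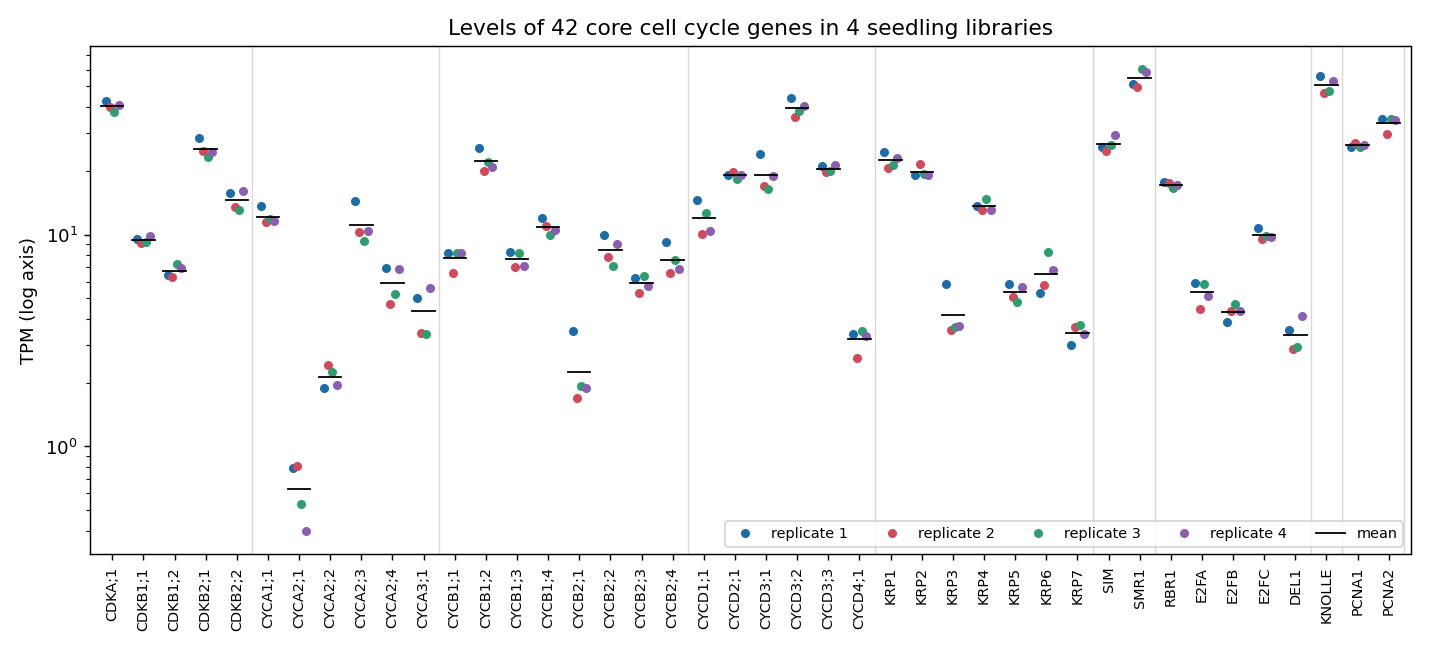
TPM of the 42 members (log axis) in each of the 4 libraries, grouped by family from kinases at the left to PCNA at the right, with the mean as a black line. SMR1 and KNOLLE are at the top, at 55.1 and 50.8 TPM, and CYCA2;1 is at the bottom, at 0.633 TPM.

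Among the kinases, the one that acts throughout the cycle was the most abundant single gene. CDKA;1 (AT3G48750, chromosome 3, 18071454 to 18074641, plus strand) had 1018, 1012, 951 and 983 counts in replicates 1 to 4, or 40.4 ± 1.99 TPM (SD, n = 4). The 4 CDKB genes, which act at G2 and mitosis, added up to 56.0 ± 3.46 TPM, or 1.39 ± 0.0328 times that level. CDKB2;1 (AT1G76540) led them with 619, 569, 530 and 539 counts and 25.2 ± 2.29 TPM, highest in replicate 1. CDKB2;2 (AT1G20930) followed with 347, 317, 305 and 361 counts and 14.6 ± 1.53 TPM. CDKB1;1 (AT3G54180) had 209, 212, 212 and 219 counts and 9.45 ± 0.352 TPM, almost the same in every library. CDKB1;2 (AT2G38620) was lowest with 156, 162, 186 and 170 counts and 6.73 ± 0.454 TPM. Both CDKB2 genes thus stood above both CDKB1 genes in every library.

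The 6 A-type cyclins among the members, a type that acts from S phase to early mitosis, added up to 36.3 ± 4.63 TPM. They spanned the widest range in fold of any family of members. CYCA1;1 (AT1G44110) was highest of these 6, with 396, 354, 359 and 341 counts and 12.2 ± 1.02 TPM. CYCA3;2, an A-type cyclin outside the members, stood above it at 18.9 TPM. CYCA2;3 (AT1G15570), known for restraining endoreplication, had 465, 355, 318 and 341 counts and 11.1 ± 2.22 TPM, and its replicate 1 lay above the other libraries. CYCA2;4 (AT1G80370) had 201, 144, 160 and 202 counts, so replicates 1 and 4 were high and replicates 2 and 3 low. CYCA3;1 (AT5G43080), of the group linked to S phase, showed the same split, with 125, 91, 89 and 142 counts and 4.36 ± 1.12 TPM. The remaining CYCA2 genes were scarce. CYCA2;2 (AT5G11300) had 57, 78, 72 and 60 counts and 2.13 ± 0.252 TPM. CYCA2;1 (AT5G25380) was the lowest of all members, with 24, 26, 17 and 12 counts and 0.633 ± 0.199 TPM. At that mean count, an observed excess in 1 library, with the others level, reaches the threshold of the test of differences between libraries at 1.90-fold.

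The 8 B-type cyclins among the members, a type that drives entry into mitosis, added up to 72.7 ± 7.30 TPM. That was 2.01 ± 0.129 times the sum of the A-type members. Among others, the sums leave out CYCA3;2 at 18.9, CYCA3;4 at 11.3, CYCA1;2 at 1.74, CYCB3;1 at 4.02 and CYCB1;5 at 0.436 TPM. The ratio thus describes the members and not all cyclins of the A and B types. CYCB1;2 (AT5G06150, chromosome 5, 1859279 to 1861703, minus strand) was the highest, with 742, 617, 674 and 613 counts and 22.1 ± 2.43 TPM. CYCB1;1 (AT4G37490), whose reporter is widely used to mark dividing cells, had 212, 180, 222 and 215 counts and 7.78 ± 0.815 TPM, low in replicate 2. The other CYCB1 genes had 218, 196, 227 and 189 counts (CYCB1;3, AT3G11520, 7.66 ± 0.683 TPM) and 348, 337, 303 and 309 counts (CYCB1;4, AT2G26760, 10.9 ± 0.874 TPM), with no library far from the rest. In the CYCB2 group, AT4G35620 (CYCB2;2) had 276, 230, 207 and 252 counts and 8.49 ± 1.27 TPM. AT1G76310 (CYCB2;4) had 341, 259, 295 and 257 counts and 7.58 ± 1.18 TPM, and AT1G20610 (CYCB2;3) had 200, 179, 215 and 185 counts and 5.92 ± 0.512 TPM. CYCB2;1 (AT2G17620, chromosome 2, 7664055 to 7666522, plus strand) was lowest with 92, 47, 53 and 50 counts and 2.25 ± 0.840 TPM. Replicate 1 of this gene was 1.88 times the mean of the other libraries in depth-scaled counts (CPM), the largest such ratio among the members. In 5 of the 8 B-type cyclins replicate 1 was highest, and in 5 of the 8 replicate 2 was lowest.

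The D-type cyclins among the members, which link growth signals to the G1 to S transition, were the most abundant cyclin family. They reached 114 ± 9.19 TPM in sum, or 1.56 ± 0.0467 times the sum of the B-type members. The CYCD3 genes, which promote division over differentiation in leaves, made up 79.3 ± 7.49 TPM of the D-type sum. CYCD3;2 (AT5G67260, chromosome 5, 26836139 to 26839597, plus strand) was highest, with 1181, 1017, 1082 and 1096 counts and 39.8 ± 3.52 TPM. CYCD3;1 (AT4G34160), a cytokinin-responsive gene, had 712, 534, 516 and 572 counts and 19.1 ± 3.41 TPM, with replicate 1 above the rest. CYCD3;3 (AT3G50070) had 483, 478, 478 and 492 counts and 20.5 ± 0.826 TPM, with a coefficient of variation of CPM of 2.50%, beside 4.55% from counting error. CYCD1;1 (AT1G70210) had 577, 427, 529 and 419 counts and 11.9 ± 2.06 TPM, so replicates 1 and 3 were high and replicates 2 and 4 low. CYCD2;1 (AT2G22490) had 530, 581, 534 and 535 counts and 19.1 ± 0.596 TPM. CYCD4;1 (AT5G65420), its close relative, was lowest of the D-type members with 108, 89, 118 and 107 counts and 3.20 ± 0.394 TPM.

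The 9 inhibitors of the kinase complexes among the members together reached 157 ± 7.17 TPM. The sum of the D-type members was 0.724 ± 0.0638 of theirs. SMR1 (AT3G10525, chromosome 3, 3281306 to 3282131, minus strand), a gene needed for endoreplicating giant cells of the epidermis, was the highest of all members at 55.1 ± 5.19 TPM. It had 674, 696, 835 and 778 counts, lower in replicates 1 and 2 than in 3 and 4. SIM (AT5G04470), which holds leaf hair cells in endoreplication, had 326, 332, 350 and 376 counts and 26.7 ± 2.01 TPM.

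The KRP genes added up to 75.2 ± 1.74 TPM, led by KRP1 (AT2G23430) with 458, 408, 417 and 436 counts and 22.4 ± 1.80 TPM. KRP2 (AT3G50630), which restrains cell division in leaves, followed with 343, 408, 365 and 348 counts and 19.8 ± 1.11 TPM. KRP4 (AT2G32710) had 519, 524, 586 and 501 counts and 13.6 ± 0.771 TPM, and KRP5 (AT3G24810) had 91, 84, 79 and 89 counts and 5.35 ± 0.477 TPM. These 4 genes showed no library far from the rest. KRP6 (AT3G19150) had 128, 148, 209 and 166 counts and 6.54 ± 1.29 TPM, and KRP3 (AT5G48820) had 110, 71, 73 and 71 counts and 4.19 ± 1.09 TPM. They differed in opposite ways in replicate 1, which was the lowest library for KRP6 and the highest for KRP3. KRP7 (AT1G49620) was the lowest of the family with 57, 74, 75 and 65 counts and 3.44 ± 0.335 TPM.

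RBR1 was the most abundant of the group formed with its E2F partners and DEL1. RBR1 (AT3G12280, chromosome 3, 3913349 to 3919359, minus strand) had 1081, 1132, 1067 and 1060 counts and 17.2 ± 0.478 TPM, and its coefficient of variation of CPM, 2.15%, was the smallest of all members. Of the E2F factors, the repressor type E2FC (AT1G47870) was highest with 288, 271, 278 and 263 counts and 9.99 ± 0.544 TPM. The activator type E2FA (AT2G36010) had 198, 159, 206 and 173 counts and 5.33 ± 0.677 TPM, and E2FB (AT5G22220) had 123, 147, 157 and 141 counts and 4.32 ± 0.338 TPM. The 3 E2F levels summed to 1.14 ± 0.0744 times that of RBR1. DEL1 (AT3G48160), an atypical E2F that restrains endoreplication, was lowest with 106, 92, 93 and 126 counts and 3.37 ± 0.588 TPM, high in replicate 4.

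KNOLLE, which fuses vesicles at the forming cell plate, was the second most abundant member. KNOLLE (AT1G08560, chromosome 1, 2709525 to 2711000, minus strand) had 1236, 1084, 1108 and 1181 counts and 50.8 ± 4.54 TPM, with replicates 1 and 4 above 2 and 3. PCNA2 (AT2G29570) had 660, 592, 695 and 657 counts and 33.6 ± 2.64 TPM, low in replicate 2. PCNA1 (AT1G07370) had 463, 514, 492 and 483 counts and 26.4 ± 0.538 TPM, with no library apart.

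Between the replicate libraries, 16 of the 42 members (38.1%) varied beyond counting error, beside 42.6% of all 20687 genes tested and 36.2% of the 5781 genes between the members' quartiles in total count. The test was a chi-square test of homogeneity against library size, adjusted by Benjamini-Hochberg over all genes tested, at 0.05. Members were thus called about as often as other genes. None of the 5 genes RBR1, E2FA, E2FB, E2FC and DEL1 was among them, though E2FA and DEL1 had an unadjusted chi-square p under 0.05. The 16 were 1 kinase (CDKB2;1), 3 A-type cyclins (CYCA2;3, CYCA2;4 and CYCA3;1), 4 B-type cyclins (CYCB1;2 and 3 of the 4 CYCB2 genes), 3 D-type cyclins (CYCD1;1, CYCD3;1 and CYCD3;2), KRP3, KRP6, SMR1, KNOLLE and PCNA2. The smallest adjusted p-values in this chi-square test were 4.29e-09 for CYCD3;1, 5.82e-08 for CYCD1;1 and 2.48e-07 for CYCA2;3. KRP6 had 0.000545 and KRP3 0.00655, while RBR1 had 0.734 and E2FC 0.657. The differences were small, since the highest library was under 1.5 times the lowest in CPM for 37 of the 42 members and under 1.2 times for 20. The test is limited by depth: an excess in 1 library reaches its threshold at 1.22-fold for a gene at the mean count of the median member, and at 1.90-fold for the scarcest member. The biological coefficient of variation (BCV) estimates the spread beyond counting error, here drawn toward the trend for genes of like expression. By this estimate 16 members lay above the trend for their expression, beside 34.1% of all genes kept.

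**Figure D3:**
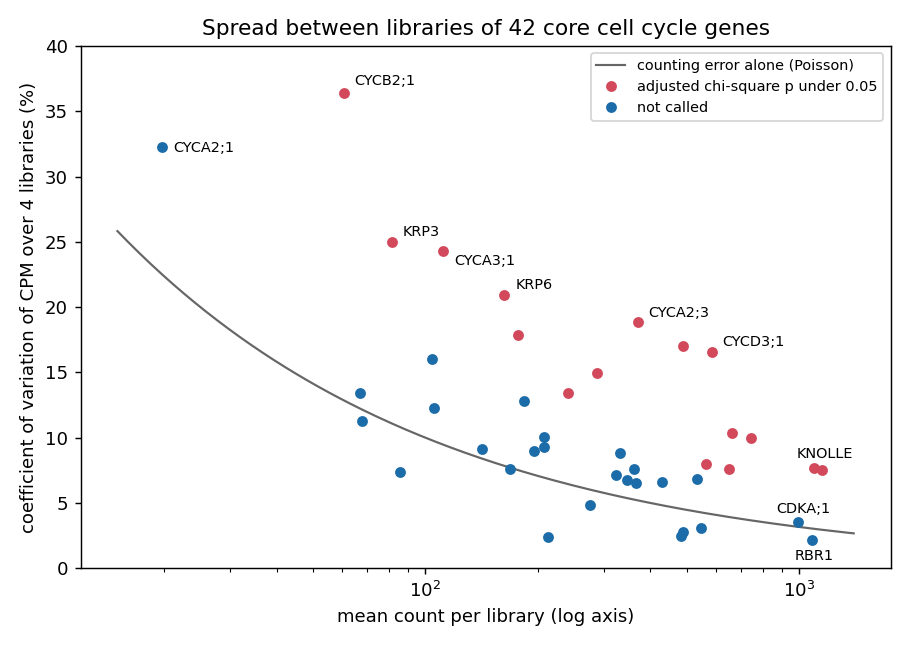
Coefficient of variation of CPM over the 4 libraries (vertical axis, percent) against the mean count per library (log axis) for the 42 members, with the spread from counting error alone as a line. The 16 members that passed the chi-square test are in red, and the largest spread, 36.4%, is that of the scarcest B-type member.

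Replicate 1 was the library in which members were most often highest, and replicate 2 the one in which they were most often lowest. Of the 42 members, 18 (42.9%) were highest in replicate 1, beside 29.0% of all genes kept, and 19 (45.2%) were lowest in replicate 2, beside 23.0%. Among the 20 cyclins, 11 were highest in replicate 1 and 10 lowest in replicate 2. The members' median deviation from their own means, on the log2 CPM scale, was 0.09 for replicate 1 and -0.09 for replicate 2, and -0.01 for both replicates 3 and 4. Without replicate 1, the value for replicate 2 was -0.06, and without replicate 2 that for replicate 1 was 0.06. All genes kept had a median of 0.00 in each library. Of the 16 members called, 12 were highest in replicate 1, beside 29.6% of the 8823 genes called. The exceptions were CYCA3;1, highest in replicate 4, and KRP6, SMR1 and PCNA2, highest in replicate 3. Without replicate 1, 6 of the 42 members were called, beside 26.5% of all genes. The 6 were CYCA2;4, CYCA3;1, CYCD1;1, KRP6, SMR1 and PCNA2, so the calls of all 4 B-type cyclins, of KRP3 and of KNOLLE were among the 10 lost without that library.

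Sums over the members of each family differed between libraries in more than one way. The B-type sum was 83.1, 66.0, 71.4 and 70.3 TPM in replicates 1 to 4, and the D-type sum 126, 105, 109 and 114 TPM, both highest in replicate 1. The A-type sum was 42.6, 33.2, 32.5 and 36.9 TPM. The KRP sum was nearly level at 77.3, 73.1, 75.7 and 74.9 TPM, and the sum of SIM and SMR1 was 77.3, 74.9, 86.9 and 88.2 TPM, higher in replicates 3 and 4. The ratio of the D-type members to the 9 inhibitors among the members was therefore highest in replicate 1, at 0.817, and 0.672 to 0.709 in the others.

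**Figure D4:**
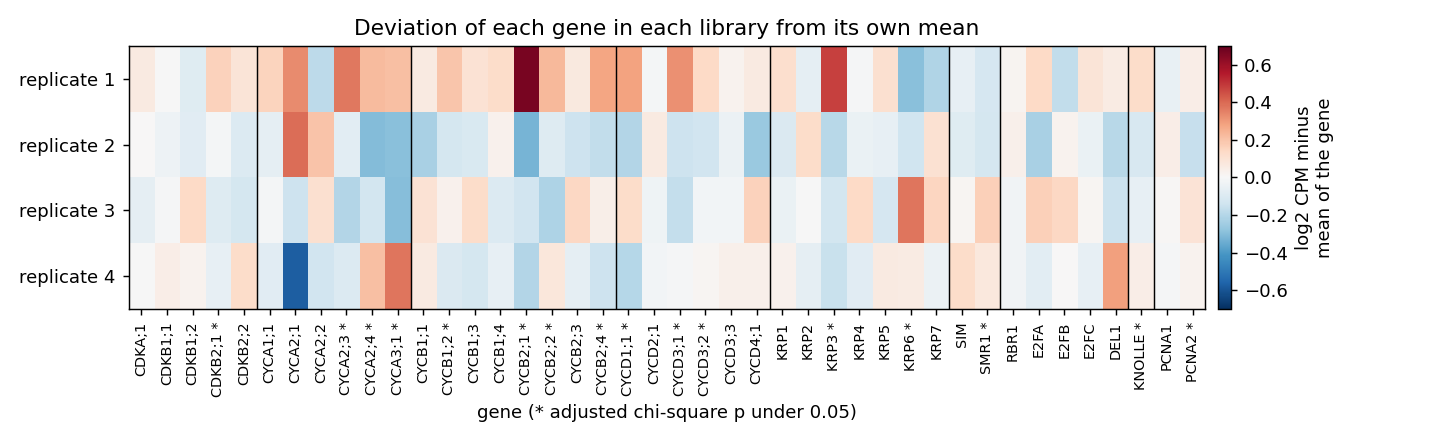
Deviation of log2 CPM from the gene's own mean (colour, red above and blue below) for each of the 42 members in each library, with families divided by black lines. Most cyclins are red in replicate 1, where CYCB2;1 stands at 0.67 and KRP6 at -0.29.

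Calls were about as frequent with as without a promoter match. Of the 20 members with an MSA core, 8 passed the chi-square test and 9 were highest in replicate 1. Of the 22 without one, 8 passed and 9 were highest in replicate 1. Among all genes, 42.6% of those tested passed and 29.0% of those kept were highest in replicate 1. These shares of all genes were not split by the MSA core. The median deviation in replicate 1, on the log2 CPM scale, was 0.13 for members with an MSA core and 0.05 for those without, a difference that was not tested. In the CYCB2 group, the gene with no match passed, as did 2 of the 3 genes with 3 matches.

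Markers of other cell types and organs also differed between these libraries. The 5 seed and embryo markers (CRA1, CRU3, SESA1, OLEO2 and PER1) summed to 123 TPM in replicate 2 and 5.20 to 7.14 TPM in the others, and all 5 were highest in replicate 2, the library in which members were most often lowest. CRU3 was at 0 counts in replicate 4, and SESA1 in replicates 3 and 4. The shoot meristem gene STM had 90, 59, 76 and 93 counts, low in replicate 2 like many members, and CLV3 had 1 count in replicate 2 and 0 elsewhere. The root stem cell genes PLT1 and PLT2 summed to between 1.05 and 1.91 TPM and were highest in replicate 4. Their counts were low, at 29, 20, 29 and 37 for PLT1 and 22, 20, 13 and 33 for PLT2. Neither gene passed the chi-square test (adjusted p 0.219 and 0.0516). Markers of the green shoot, 5 of 5 detected, summed to between 56025 and 59267 TPM, so the green shoot was represented in every library. The root marker PYK10 stood between 3986 and 4774 TPM. The iron uptake genes IRT1 and FRO2, expressed in the root epidermis, were lowest in replicate 3, at 92.1 and 28.9 TPM beside 141 to 163 and 43.5 to 53.0 TPM in the others. The root aquaporin gene AT5G47450 went the other way, at 16.3 TPM in replicate 3 beside 9.39 to 11.5 TPM, so all 4 root markers were detected and did not vary together. The part of these cell types in the differences among the members was not tested.

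Related members were compared within each library, so that differences in the yield of a library cancel. In 17 of 19 pairs the ratio had the same sign in all 4 libraries. With 4 libraries, the exact two-sided sign-flip test cannot go below 0.125 (0.14 adjusted over the 19 pairs), so no pair could pass 0.05. Within the CDKB1 and the CDKB2 group the first-numbered gene exceeded the second by 0.49 ± 0.10 and by 0.79 ± 0.13 (difference in log2 TPM, SD, n = 4). CYCB1;2 exceeded CYCB1;3 by 1.53 ± 0.08, and CYCD2;1 exceeded CYCD4;1 by 2.58 ± 0.23. E2FC exceeded E2FB by 1.21 ± 0.18, and E2FA exceeded E2FB by 0.30 ± 0.24. Each of these pairs kept one order in every library, with the narrowest margin for E2FA in replicate 2, at 0.04.

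SIM stood at -1.04 ± 0.10 relative to SMR1, PCNA1 at -0.35 ± 0.14 relative to PCNA2, and KRP3 at -1.73 ± 0.34 relative to KRP4, or -2.73 without length normalisation. Among the cyclins scarcer than their relative, CYCB2;1 stood at -1.96 ± 0.34 relative to CYCB2;2 and came nearest to it in replicate 1, at -1.51. Signs were mixed in a pair of D-type cyclins, where the log2 ratio of CYCD3;1 to CYCD3;3 was 0.18, -0.22, -0.27 and -0.16 in replicates 1 to 4 (exact sign-flip p 0.375, also adjusted). They were also mixed for KRP1 to KRP2, at 0.36, -0.06, 0.14 and 0.27 (exact sign-flip p 0.25, 0.264 adjusted). These 2 pairs thus kept no single order over the libraries, and the test could not place any pair in an order.

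**Figure D5:**
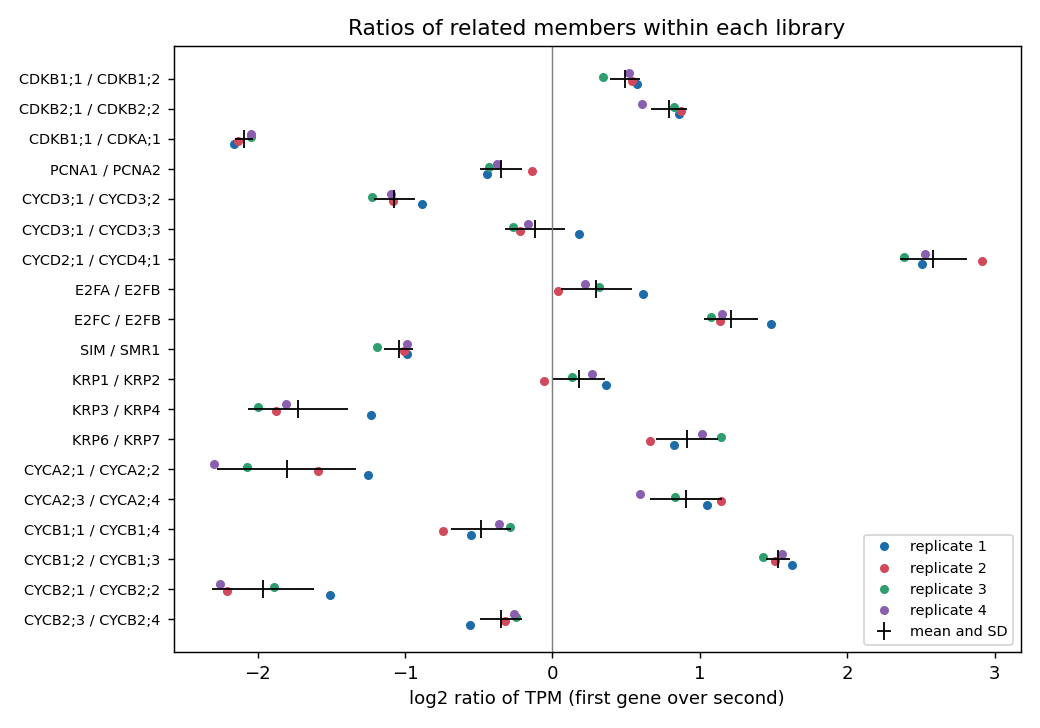
Log2 ratio of TPM within each library (horizontal axis) for 19 pairs of related members, with the mean and SD in black. In 17 pairs all 4 points lie on 1 side of 0, and one pair of CYCD3 genes and the pair of KRP1 and KRP2 cross it.

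Other genes of the cycle, which regulate or carry out the same steps, were also most often highest in replicate 1. Of 45 such genes in 7 lists, 41 passed the expression filter, and 26 of these (63.4%) were highest in that library, beside 29.0% of all genes. They were most often lowest in replicate 3, with 18 of 41 (43.9%) beside 26.1% of all genes, and 14 (34.1%) were lowest in replicate 2. The chi-square test could be run on 43, of which 20 (46.5%) passed, a share near the 42.6% of all genes tested. Of these 20, 15 were highest in replicate 1, beside 29.6% of all genes called. The 9 licensing genes, which load the replicative helicase on origins, gave 7 calls, beside the 42.6% of all genes. MCM7 (AT4G02060), a helicase subunit and the highest of them at 18.7 ± 1.65 TPM, had 883, 829, 757 and 771 counts. CDC6 (AT2G29680), a loader and the lowest at 3.22 ± 0.697 TPM, had 126, 98, 157 and 103. All 6 MCM genes passed and were highest in replicate 1, whereas CDC6 passed and was highest in replicate 3. In the promoter window used above, 5 of these 9 genes, all of them MCM genes, held an E2F site, beside 1.76% of all promoters.

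Of the 6 genes of the anaphase-promoting complex and its activators, which mark cyclins for destruction, 4 passed, where 42.6% of all genes tested did. That share is the background of each count of passes given here for these short lists. The activator gene CDC20.1 (AT4G33270) was highest at 22.2 ± 3.66 TPM with 877, 631, 728 and 798 counts, low in replicate 2. CCS52B (AT5G13840), another activator, followed the same pattern with 595, 403, 485 and 539 counts, while CCS52A2 was the lowest at 4.11 TPM and did not pass. Of the other cyclins, 5 of the 8 tested passed. They ran from CYCA3;2 at 18.9 TPM down to CYCA3;3, which had 0 counts in every library. A count of 0 in a library taken alone allows an expected count of up to about 3, and the libraries together allow less. Of the 8 kinase partners and activators 3 passed, from the kinase-binding protein gene CKS1 at 40.9 TPM to CDKD;1 at 2.22 TPM. The MYB3R factors, from MYB3R1 at 9.75 TPM to MYB3R5 at 2.22 TPM, gave 0 calls among 4 in the chi-square test, as did the DP and other DEL factors, from DPB at 10.9 TPM to DEL2 at 2.34 TPM. In each of these lists 1 gene, MYB3R1 and DEL3, had an unadjusted chi-square p under 0.05. Of the other SMR genes, from SMR2 at 7.18 TPM to SMR7 at 1.04 TPM, 1 of 4 passed, SMR5 with 19, 34, 9 and 17 counts.

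Counts of some members can include reads of other genes, or miss reads from bases shared with them. No member had a near-identical copy, taken as 98% identity over 90% or more of its transcript. The closest was a stretch of 386 bases of CYCB1;2 at 97.9% identity to CYCB1;5, which had 22 to 37 counts. The CDKB2 genes were 86.0% identical to each other over 957 bases, and PCNA1 and PCNA2 85.7% over 788. In the TAIR10.1 annotation 16 members overlap another gene, 15 of them on the opposite strand. The strand setting of the counting is not stated, so how reads in shared bases were assigned is not known. AT3G10527 shares 375 bases with SMR1, which had 2983 counts over the libraries, and itself had 8. AT5G04475 shares 338 with SIM, which had 1384, and itself had 9. Most reads of SMR1 and SIM were thus not also counted for these partners. Whether reads in shared bases were assigned by strand or left out was not tested. KNOLLE shares 464 bases with NPQ1, which had 8457 counts over the libraries. DEL1 shares 307 with ALDH10A9, which had 10358, and KRP4 shares 926 with CB5-B, which had 3302. CYCD3;1 shares 40 bases on the same strand with AT4G34150, which had 5357.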

How the data were processed

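Raw read counts per gene were deposited by the authors, and the submitters' processing notes list HISAT2 2.1.0, featureCounts 1.6.0 and the TAIR10 build. The annotation release, the strand setting and the treatment of reads with several positions are not stated there. The deposited columns, named with hup40, were matched by prt6-1 and the replicate number. The label of replicate 4 has prt-16 for prt6-1, read as a misprint.

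Of 37885 identifiers, 37882 matched the RefSeq TAIR10.1 annotation, which gave exon lengths, promoters and positions. TPM was computed from the count plus 0.5 and merged exon length. Library sizes were scaled by TMM, the filter was filterByExpr, and BCV came from an intercept-only model in edgeR 4.0.16 under R 4.3.3. Deviations used log2 CPM with a prior count of 2. The chi-square test required 10 expected counts per library and was tested on simulated data first. Transcripts were compared with BLAST 2.17.0. DESeq2 1.42.0 size factors were an alternative. Counting error is the only error the chi-square test and the limit for a count of 0 cover.

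The members, lists, pairs and motifs were chosen with earlier results of these data known. Counts were printed for the highest and lowest member of each family, for every member called and for the other members beside them. Protein motifs were planned and not analysed here. Alternatives are given at the end.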

Additional observations from a re-analysis of the deposited data

Results flagged for a closer look

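In 4 of the 42 members 1 library lay far from the other 3 by Dixon's gap ratio, where about 1 in 20 groups is so marked by chance, or 2.1 of 42. CYCB2;1 was at 3.68 CPM in replicate 1, beside 1.81, 2.08 and 1.98 in replicates 2 to 4. KRP3 was at 4.40 CPM in replicate 1, beside 2.74, 2.87 and 2.81. CYCB1;1 was at 6.95 CPM in replicate 2, beside 8.49, 8.72 and 8.50 in replicates 1, 3 and 4, and did not pass the chi-square test (adjusted p 0.161). CYCD2;1 was at 22.4 CPM in replicate 2, beside 21.2, 21.0 and 21.2, and did not pass either (adjusted p 0.726).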

How the results depend on the processing

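Leaving out replicate 1 changed the count of members varying beyond counting error most, from 16 to 6, and over the 4 replicates left out in turn it ranged from 6 to 17. All 6 were among the 16. This comparison also has fewer libraries, and the share of all genes called was 26.5% in place of 42.6%. Raw library totals gave 17 members and DESeq2 size factors, expected counts of at least 5 and of at least 50 gave 16. The median log2 level was 3.35 in TPM and 3.57 in CPM, without length normalisation, where the unit itself changes. It ranged from 3.30 to 3.38 when each replicate was left out. The log2 ratio of CYCD3;1 to CYCD3;3 reversed from -0.12 to 0.26 without length normalisation, so their order depends on the gene lengths used. Of 133 pair ratios under alternatives, 11 others moved by more than their SD with the same sign, all under another length or none, and 121 did not. The ratio of KRP3 to KRP4 went from -1.73 to -2.73, the largest of these moves. The counts of members past the filter, with a BCV above the trend, highest in replicate 1 and lowest in replicate 2 stayed within 1.5 times their values under the alternatives run for each. The last 2 sets of alternatives, and leaving out replicates for the median deviation, were chosen after seeing the data. Leaving out another replicate tends to raise the counts highest in replicate 1 or lowest in replicate 2 for any genes. Members highest in replicate 1 went from 18 to between 21 and 24, and all genes from 29.0% to between 35.2% and 37.3%. Members lowest in replicate 2 went from 19 to between 21 and 25, and all genes from 23.0% to between 31.6% and 32.7%. Staying within 1.5 times is thus no test of stability for these counts. The median deviations of replicates 3 and 4 lay near 0 and changed sign under some settings: replicate 3 was 0.01 without replicate 1 and replicate 4 was 0.01 with raw library totals. No paired analysis was possible because there is a single group.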
